A study of Mus musculus with 8 samples.

Results

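The chemokines and their receptors were examined in 8 liver RNA samples of male mice, 4 wild type and 4 from knock-in (KI) animals, in which Tm6sf2, a gene of hepatic lipid export, bears the coding change E167K. The family was taken by gene symbol: every gene named Ccl, Cxcl, Ccr or Cxcr with a number except Ccl27b, together with Cx3cl1, Cx3cr1, Xcl1, Xcr1 and the atypical receptors Ackr1 to Ackr4, each represented by its own brightest probe set, averaged across all 8 arrays. In all, 56 genes of 22180 with a probe set of their own qualified, 34 ligands and 22 receptors. RNA came from whole liver of the C57BL/6J strain, as labelled, and 400 ng of it was labelled with biotin for an Affymetrix whole-transcript array. The wild type mice were littermates of the knock-in mice, and the age at collection is not given in the sources used here. The labels disagree on diet. One note gives a high-sucrose fat free diet (HSD) or normal chow for 14 weeks, and the series text instead names a high fat-diet (HFD), over 20 weeks, so no value below is tied to a diet. Whether each array came from its own animal is not said in the labels, and every p-value here rests only on the spread among arrays of a group, which may be technical.

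Chemokines are small secreted proteins that form gradients along which leukocytes move. They are sorted by the spacing of their first cysteines into CC, CXC, CX3C and XC classes, and they act through G protein-coupled receptors on the target cell. The atypical receptors bind chemokines without G protein signalling and remove or redistribute them. In liver, Kupffer cells, sinusoidal endothelium, stellate cells and hepatocytes are known to release chemokines, while most receptors sit on leukocytes, which are a minor part of the tissue. In whole tissue, fewer cells of a type and less RNA per cell cannot be told apart.

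All values are the deposited log2 expression values, on which 1 unit is a doubling, and a change is knock-in minus wild type on that scale. Array medians were 3.73 to 3.80, and any 2 arrays correlated at 0.973 to 0.980 across probe sets. Detection calls were not used here, so a gene was counted as above background where at least 4 of the 8 arrays exceeded a dim limit, the 40th percentile of the array, which lay at 3.46 to 3.50. The liver label was borne out by Alb, the plasma albumin of hepatocytes, at 13.54 to 13.66. Tm6sf2 itself spanned 9.43 to 9.92 on wild type arrays, beside 9.27 to 9.90 on knock-in arrays, which does not check the genotype because the variant is a coding change.

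Above that limit were 37 of the 56 family genes, 24 of 34 ligands and 13 of 22 receptors. Of these, 26 exceeded it on all 8 arrays and 11 on 4 to 7 arrays. The other 19 were dim: 6 exceeded it on 1 to 3 arrays, and 13 on 0 arrays. The count depends on where the limit is set, since 21 genes passed at the 50th percentile and 13 at the 60th. Receptors of the CC class were mostly dim. Only Ccr2, the receptor that draws monocytes from blood, and Ccr7, which guides dendritic cells and T cells to lymph nodes, were above the limit among the 10 measured. Ccr1, Ccr3, Ccr4, Ccr6, Ccr8, Ccr9, Ccr10 and Ccr1l1 were below it. All 8 receptors of the CXC, CX3C and XC classes and 3 of 4 atypical receptors passed at this limit, the dim one being Ackr4. Of those 8, however, only 3 exceeded it on all 8 arrays. Means of Cxcr5, Xcr1, Cxcr6 and Ackr1 were 3.49, 3.53, 3.62 and 3.53, close to the limit, and below Ccr2 at 4.58 and Ccr7 at 4.72. At the 60th percentile, Cxcr4 and Ackr2 were the only receptors of any class that passed. Dim ligands were Ccl1, Ccl8, Ccl12, Ccl22, Ccl26, Cxcl3, Cxcl5, Cxcl15, Cxcl17 and Xcl1. Xcl1, a ligand made by NK cells and CD8+ T cells, was uneven, at 4.47 and 3.85 in wild type replicates 3 and 4 and at 4.23 in knock-in replicate 3, with the other 5 arrays at 2.79 to 3.36.

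**Figure D1:**
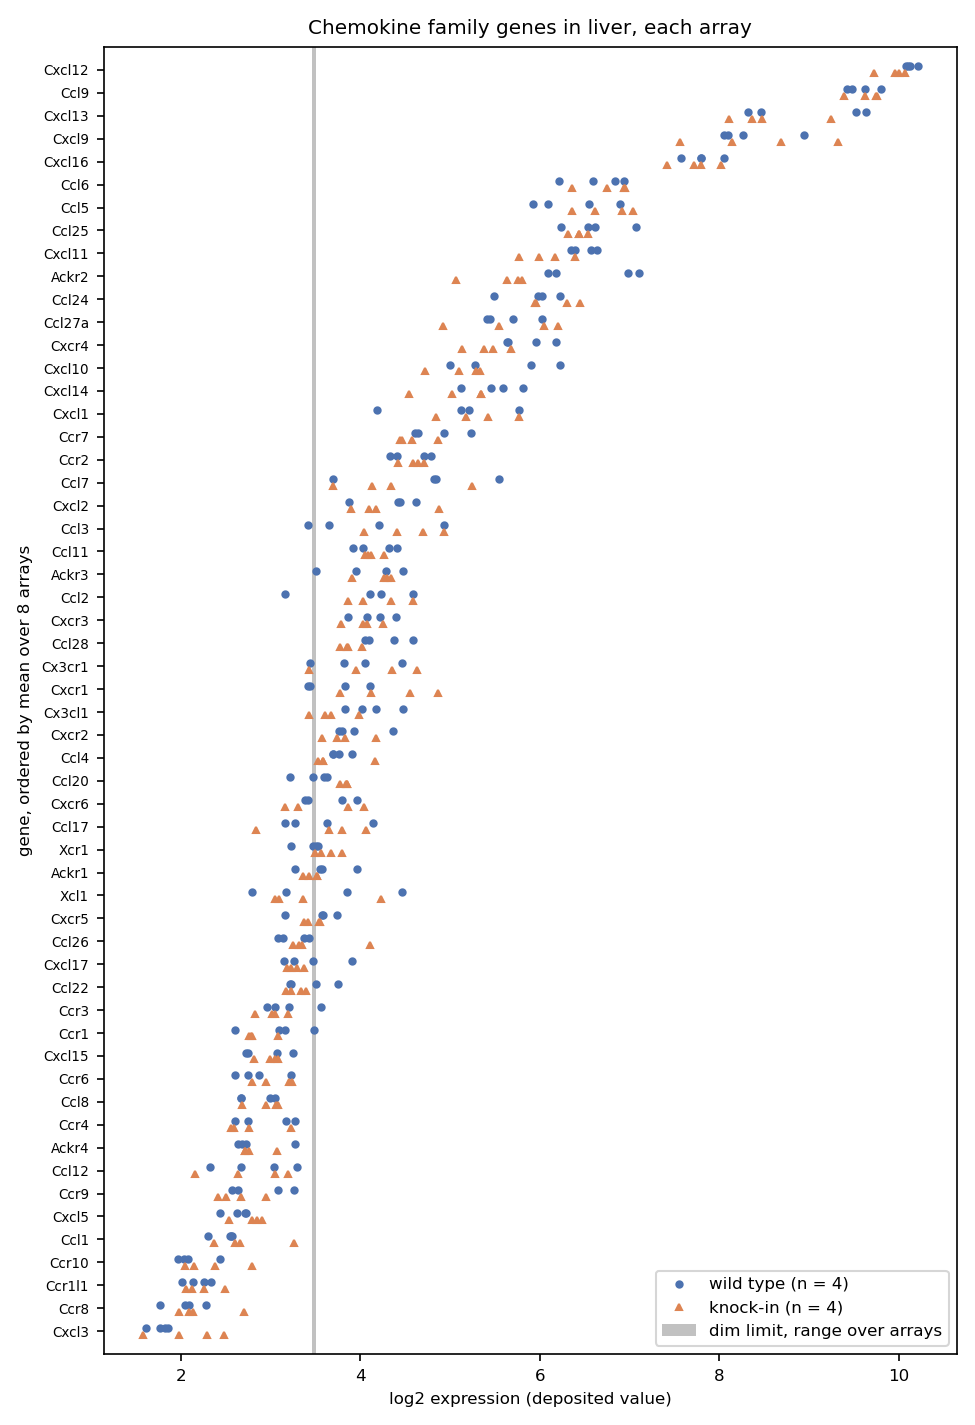
Deposited log2 expression (x axis) of each of the 56 family genes (y axis, ordered by the mean over 8 arrays) on each of 4 wild type (circles) and 4 knock-in (triangles) arrays, with the dim limit as a grey band at 3.46 to 3.50. Cxcl12 lies at the top and Cxcl3 at the bottom, and brightness is not comparable between probe sets of different genes.

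Across the family, 0 of 37 tested genes passed the limma test at adjusted p under 0.05, with 7 at unadjusted p under 0.05. The background rate of the adjusted call was 0.0669% of 13449 tested genes. Adjusted p-values of the family ran from 0.207 to 0.980. Of the 7 genes, 5 were lower in the knock-in (Ackr2, Ccl28, Cxcl11, Cx3cl1 and Cxcr4; 5.29% of all tested genes were lower by this rule) and 2 were higher (Ccl20 and Cxcr1; background 6.01%). Together they are 18.9% of the tested members, against 11.3% of all tested genes. With the limit at the 60th percentile, 3 of 13 members had an unadjusted p under 0.05, or 23.1% against 14.1% of the 9203 genes tested there. The median change of the 37 genes was -0.05, beside 0.0046 over all tested genes, with 16 members above 0 and 21 below. The median SD of family genes was 0.29 in wild type and 0.27 in knock-in samples, against 0.18 and 0.16 over all tested genes. Other immune lists had a like spread, with 0.32 and 0.27 for Kupffer cell markers and 0.28 and 0.34 for T and NK cell markers. The groups did not overlap in 4 members, 10.8% against a background of 7.16%. Ackr2, Ccl28 and Cxcl12 were lower in each knock-in sample (background 3.2%) and Ccl20 was higher (background 3.96%).

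**Figure D2:**
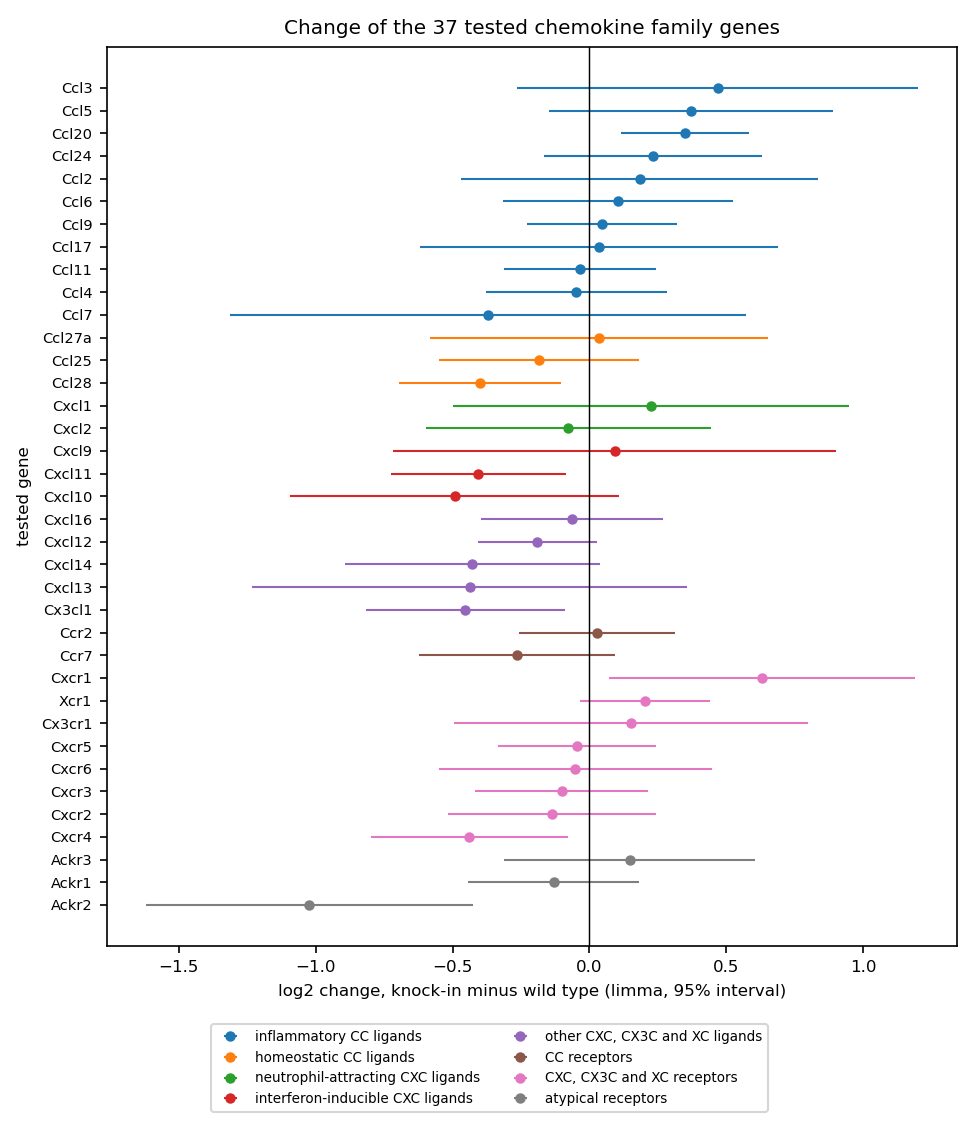
Log2 change, knock-in minus wild type, with its 95% interval from limma (x axis) for the 37 tested genes (y axis), coloured by role. Intervals of 7 genes leave out 0 before adjustment, and Ackr2 at -1.02 has the change farthest from 0.

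Ackr2, an atypical receptor that scavenges inflammatory CC chemokines, had the largest difference of the family. Its probe set, 17523371, read 6.18, 6.10, 6.98 and 7.10 in wild type samples 1 to 4 and 5.80, 5.07, 5.76 and 5.64 in knock-in samples 1 to 4. Every knock-in sample lay below every wild type sample, with a gap of 0.295, and wild type samples 3 and 4 stood above the other wild type pair. Means were 6.59 ± 0.52 and 5.57 ± 0.34 (SD, n = 4), a change of -1.02 (SE 0.26, 95% interval -1.62 to -0.43), which is 2.03-fold lower and did not pass over all genes (limma adjusted p = 0.207). Leaving out 1 array at a time gave changes of -1.19 to -0.85. Sinusoidal endothelial markers, 9 tested, had a median change of 0.00022, with 5 above 0 and 4 below, from -0.22 for Dnase1l3 to 0.73 for Lyve1, which lymphatic endothelium also carries. Lyve1 was the only one of them at unadjusted p under 0.05, at 9.30, 9.32, 8.52 and 9.13 in wild type and 9.96, 10.11, 9.85 and 9.25 in knock-in samples (SE 0.23, limma adjusted p = 0.295). The part of these markers in the Ackr2 value was not tested. The other atypical receptors differed less. Ackr1, which binds chemokines on red cells and venules, was at -0.13 (SE 0.14), and Ackr3, a scavenger of Cxcl12 and Cxcl11, was at 0.15 (SE 0.20), reading 4.47, 4.29, 3.51 and 3.95 in wild type and 3.90, 4.30, 4.27 and 4.34 in knock-in samples. Without wild type replicate 3, the low array, the change of Ackr3 was -0.03.

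Inflammatory CC ligands are released by macrophages and injured tissue and recruit monocytes, T cells and eosinophils. Of 16 measured, 11 were tested, 8 with a change above 0 and 3 below, and 1 had an unadjusted p under 0.05. That one was Ccl20, the ligand of Ccr6 (probe set 17214857), at 3.47, 3.63, 3.22 and 3.60 in wild type and 3.78, 3.85, 3.84 and 3.86 in knock-in samples. The knock-in samples lay close together and above all wild type samples, by at least 0.15. The change was 0.35 (SE 0.10, limma adjusted p = 0.266). Only 2 of the 4 wild type arrays exceeded the dim limit, so the level there is near background and the size of the change is uncertain. Its receptor Ccr6 was dim on all 8 arrays.

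Monocyte-directed ligands overlapped between the groups. Ccl2, the main ligand of Ccr2 (17254041), read 3.17, 4.11, 4.58 and 4.23 in wild type and 4.59, 4.03, 4.34 and 3.87 in knock-in samples, a change of 0.18 (SE 0.29). Wild type replicate 1 was the low one, and without it the change was negative, at -0.10. Ccl7, which shares the receptor and is the next gene to Ccl2 in GRCm38.p6, was at -0.37 (SE 0.42) and had the largest standard error of the tested members, with a highest value of 5.54 in wild type replicate 1. Ccr2 itself (17523650) read 4.40, 4.71, 4.79 and 4.34 in wild type and 4.42, 4.59, 4.64 and 4.71 in knock-in samples, and its change was 0.03 (SE 0.13, 95% interval -0.26 to 0.31).

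The macrophage ligands Ccl9 and Ccl6 exceeded the limit on all 8 arrays, and their groups overlapped. Ccl9 (17266952) read 9.80, 9.63, 9.42 and 9.48 in wild type and 9.39, 9.76, 9.74 and 9.63 in knock-in samples, a change of 0.05 (SE 0.12, 95% interval -0.23 to 0.32). Ccl6 (17266960), its neighbour with 1 annotated gene between them, read 6.84, 6.59, 6.22 and 6.93, then 6.36, 6.94, 6.75 and 6.95, a change of 0.10 (SE 0.19), or -0.038 without wild type replicate 3, its low array. Ccr1, the receptor of these ligands, exceeded the limit on 1 array only. Ccl5, a T cell and NK cell product (17266946), was at 6.09, 5.93, 6.55 and 6.89 in wild type and at 7.04, 6.62, 6.36 and 6.92 in knock-in samples, a change of 0.37 (SE 0.23, adjusted p = 0.593 by limma). The upper wild type values lie inside the knock-in range, so the groups overlap. Ccl3 and Ccl4, neighbouring ligands of activated macrophages, were at 0.47 (SE 0.32) and -0.05 (SE 0.15). Ccl24 and Ccl11, eosinophil attractants, were at 0.23 (SE 0.18) and -0.04 (SE 0.12), and Ccl17, a ligand of Ccr4, was at 0.03 (SE 0.29).

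Homeostatic CC ligands direct the movement of lymphocytes. Ccl28, a mucosal ligand of Ccr10 (17290163), read 4.05, 4.10, 4.38 and 4.59 in wild type and 3.86, 3.78, 3.86 and 4.02 in knock-in samples. All knock-in values were lower, but the gap between the groups was 0.031. Its change was -0.40 (SE 0.13, limma adjusted p = 0.311). Ccl25, the ligand of Ccr9 (17498830), was at 7.07, 6.24, 6.62 and 6.54 in wild type and 6.44, 6.54, 6.43 and 6.31 in knock-in samples, a change of -0.18 (SE 0.16), and both Ccr9 and Ccr10 were dim on all arrays. Ccl27a had 2 probe sets of its own that disagreed in sign, at 0.03 in the brighter and -0.33 in the other, and the gene has close copies, so its value is uncertain.

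Of 5 CXC ligands that attract neutrophils, 2 were tested and 0 had an unadjusted p under 0.05. Cxcl1 (17438987) was at 5.77, 5.13, 4.19 and 5.22 in wild type and 5.18, 5.42, 5.77 and 4.84 in knock-in samples, a change of 0.22 (SE 0.32), and it turned to -0.07 without wild type replicate 3, the low array. Cxcl2, the next gene to it, was at -0.08 (SE 0.23). Cxcl3, Cxcl5 and Cxcl15 were below the limit on all 8 arrays. Among the receptors, Cxcr2 (17214142) read 4.37, 3.77, 3.93 and 3.80 in wild type and 4.17, 3.57, 3.83 and 3.74 in knock-in samples, a change of -0.14 (SE 0.17). Cxcr1, its neighbour in the genome (17224251), read 3.44, 3.83, 3.42 and 4.11 in wild type and 3.78, 4.55, 4.12 and 4.86 in knock-in samples. The change was 0.63 (SE 0.25, limma adjusted p = 0.375), with overlap between groups and only 2 wild type arrays above the limit. Its change ran from 0.45 to 0.81 as single arrays were left out, and its unadjusted limma p rose above 0.05 without wild type replicates 1 or 3 or knock-in replicates 2 or 4. Of 10 neutrophil markers, 3 were above the limit; S100a8, Ly6g, Mmp8, Camp and Ngp were below it on all arrays. Averaged, those 3 markers spanned 4.41 to 4.73 on wild type arrays, beside 4.16 to 4.57 on knock-in arrays, and its part in the Cxcr1 value was not tested.

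**Figure D3:**
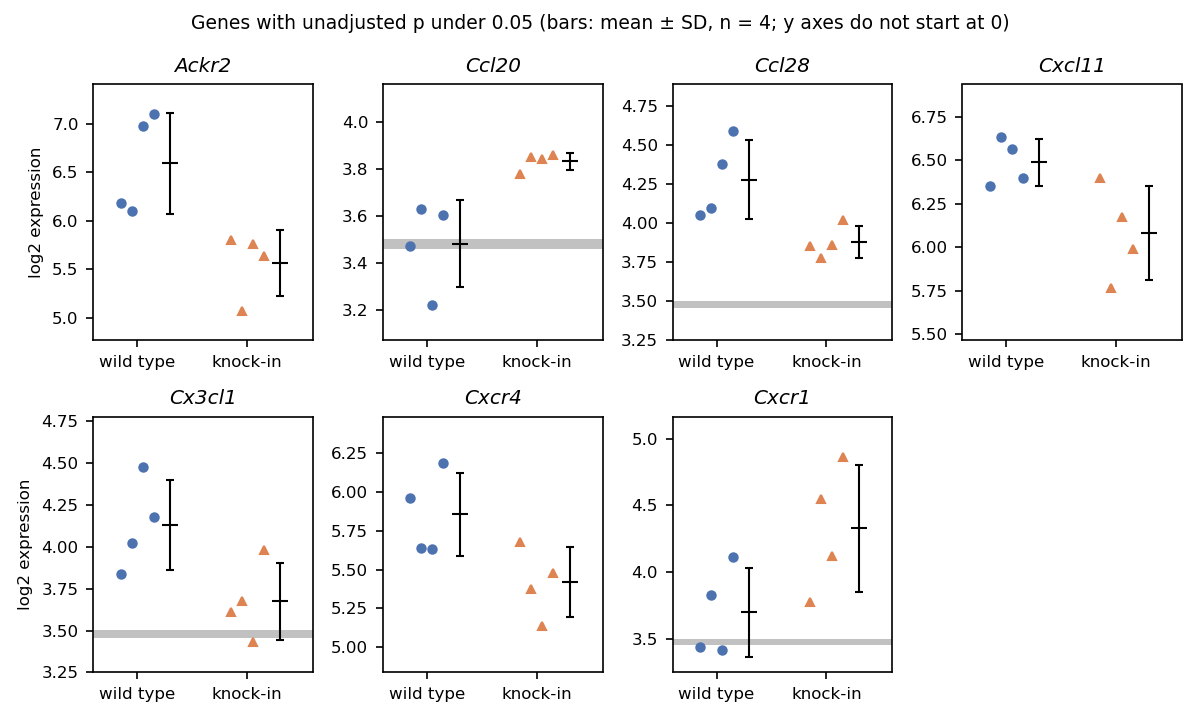
Log2 expression (y axes, which do not start at 0) of the 7 genes with unadjusted p under 0.05 on each wild type (circles) and knock-in (triangles) array, with the mean ± SD of 4 arrays beside them and the dim limit as a grey band where it falls in the range. Ackr2, Ccl20 and Ccl28 do not overlap between the groups, while Cxcl11, Cx3cl1, Cxcr4 and Cxcr1 do.

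Cxcl9, Cxcl10 and Cxcl11 are induced by interferon and call T cells and NK cells through Cxcr3. They lie together in the genome, Cxcl10 next to Cxcl11 and 1 annotated gene away from Cxcl9, with 2 of 3 changes below 0. Cxcl11 (17449725) was at 6.35, 6.64, 6.57 and 6.40 in wild type and 6.40, 5.76, 6.17 and 5.99 in knock-in samples, a change of -0.41 (SE 0.14, limma adjusted p = 0.333). One knock-in sample, replicate 1, reached the wild type range. Cxcl10 (17449718) was at 5.28, 4.9997, 5.91 and 6.22 in wild type and 4.72, 5.29, 5.34 and 5.10 in knock-in samples, a change of -0.49 (SE 0.27). The overlap there came from wild type replicates 1 and 2. Cxcl9 (17449710) was at 8.05, 8.09, 8.26 and 8.95 in wild type and 7.57, 9.33, 8.69 and 8.14 in knock-in samples, a change of 0.09 (SE 0.36, 95% interval -0.72 to 0.90). Its sign turned in 2 fits that left out 1 array, to as low as -0.21. Their receptor Cxcr3 (17543625) read 4.39, 3.86, 4.08 and 4.22, then 3.79, 4.07, 4.26 and 4.03, a change of -0.10 (SE 0.14).

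Promoters are shown for a selection of members: Ackr2 and Ccl20, whose groups did not overlap, the neutrophil ligand Cxcl1, and the close neighbours Cxcl9 and Cxcl10. Ccl28 and Cxcl12, also without overlap, are not shown. The printed set therefore does not give the frequency of a match in the family, which follows below the sequences. Each run holds the 250 bases before the annotated start, 5′ to 3′ on the gene's strand, from RefSeq on GRCm38.p6. Capitals mark matches to the NF-κB consensus, to the core of an interferon-stimulated response element (GAAA, then any 2 bases, then GAAA) or to TATAAA, searched on both strands. Positions are chr9:121898105-121898354, plus strand for Ackr2; chr1:83116516-83116765, plus strand for Ccl20; chr5:90890995-90891244, plus strand for Cxcl1; chr5:92328080-92328329, minus strand for Cxcl9; and chr5:92348890-92349139, minus strand for Cxcl10.
Ackr2: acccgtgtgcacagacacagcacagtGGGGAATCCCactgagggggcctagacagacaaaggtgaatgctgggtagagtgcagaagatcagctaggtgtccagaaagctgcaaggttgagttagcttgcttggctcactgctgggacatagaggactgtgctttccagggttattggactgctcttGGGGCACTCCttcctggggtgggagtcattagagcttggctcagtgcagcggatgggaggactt
Ccl20: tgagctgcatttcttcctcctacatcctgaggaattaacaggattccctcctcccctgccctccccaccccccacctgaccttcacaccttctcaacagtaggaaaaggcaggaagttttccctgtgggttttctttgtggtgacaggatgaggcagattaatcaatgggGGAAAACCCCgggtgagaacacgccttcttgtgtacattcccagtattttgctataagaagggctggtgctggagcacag
Cxcl1: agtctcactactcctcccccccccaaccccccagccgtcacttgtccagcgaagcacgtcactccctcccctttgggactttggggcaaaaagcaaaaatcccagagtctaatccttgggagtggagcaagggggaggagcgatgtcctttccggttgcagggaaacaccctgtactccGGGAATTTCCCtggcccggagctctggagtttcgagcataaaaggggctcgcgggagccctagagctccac
Cxcl9: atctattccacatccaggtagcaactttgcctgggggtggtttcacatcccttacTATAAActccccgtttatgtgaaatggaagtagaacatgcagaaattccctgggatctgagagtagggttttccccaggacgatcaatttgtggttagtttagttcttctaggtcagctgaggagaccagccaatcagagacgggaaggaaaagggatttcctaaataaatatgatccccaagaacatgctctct
Cxcl10: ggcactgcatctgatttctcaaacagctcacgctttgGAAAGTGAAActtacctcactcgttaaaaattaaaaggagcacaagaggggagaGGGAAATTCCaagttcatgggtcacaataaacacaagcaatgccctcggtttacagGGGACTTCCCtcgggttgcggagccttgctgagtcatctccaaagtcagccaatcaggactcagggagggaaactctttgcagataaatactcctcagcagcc

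The NF-κB consensus is the binding sequence of the factor that inflammatory cytokines activate. Of 46 promoters listed for 42 member genes, 9 held a match, or 19.6%, against 3.90% of all 32851 promoters of the same length. The 9 genes were Ackr2, Ccl20, Ccl9, Ccr3, Ccr6, Cxcl1, Cxcl10, Cxcl2 and Cxcl3. Their changes did not share a sign: Ackr2, Cxcl10 and Cxcl2 were below 0, and Ccl20, Cxcl1 and Ccl9 above. Of these, Cxcl2, Cxcl1 and Ccl9 changed sign as single arrays were left out. Ccr3, Ccr6 and Cxcl3 were dim. The interferon-response core was found for Cxcl10 and Cxcl14, 4.35% of member promoters against 2.98% of all, and TATAAA in 30.4% against 12.4%. In Cxcl10 that core lies 213 to 204 bases before the start and overlaps neither of its NF-κB matches, at 159 to 150 and 103 to 94. A match is a description of the letters. Only 42 of the 56 members had a listed promoter. The others, among them Cxcl11, Ccl2 and Ccl5, were not searched, so their absence from the 9 genes says nothing about a match.

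Of the 7 remaining ligands, which form no single class, 5 were tested and all 5 were below 0. Over all genes, 6572 of 13449 tested were below 0. Cxcl16, among the 5, changed sign in 2 fits that left out 1 array. Cxcl12, which holds blood stem cells and lymphocytes in tissue (17462149), was at 10.08, 10.10, 10.12 and 10.22 in wild type and 9.73, 9.95, 10.07 and 10.00 in knock-in samples. The groups did not overlap, by 0.00586, and the change was small, -0.19 (SE 0.10, limma adjusted p = 0.494). Cxcr4, its receptor (17226593), was at 5.96, 5.64, 5.63 and 6.19 in wild type and 5.68, 5.38, 5.14 and 5.48 in knock-in samples. The ranges touch at a single knock-in sample, replicate 1, and the change was -0.44 (SE 0.16, limma adjusted p = 0.340). Without wild type replicates 1 or 4 or knock-in replicate 3, the unadjusted p of Cxcr4 was 0.055 to 0.063.

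Cx3cl1, the membrane-bound chemokine of endothelium and epithelium (17504130), was at 3.84, 4.03, 4.48 and 4.18 in wild type and 3.61, 3.68, 3.43 and 3.98 in knock-in samples, a change of -0.45 (SE 0.16, limma adjusted p = 0.338). Its values are close to the dim limit, and 1 knock-in array fell below it. Its unadjusted limma p rose above 0.05 when replicate 3 of either genotype was left out. Its receptor Cx3cr1, a marker of patrolling monocytes and capsular macrophages (17532268), was at 3.44, 3.82, 4.47 and 4.06, then 3.43, 4.36, 4.64 and 3.96, a change of 0.15 (SE 0.29). Cxcl13, which gathers B cells through Cxcr5 (17439367), was split within groups, at 8.32, 9.52, 8.47 and 9.63 in wild type and 9.24, 8.11, 8.36 and 8.48 in knock-in samples. The high values were wild type replicates 2 and 4 and knock-in replicate 1, and the change was -0.44 (SE 0.35). Cxcl16, the ligand of Cxcr6 (17265268), was at 7.58, 7.79, 7.80 and 8.05, then 7.42, 7.72, 7.80 and 8.02, a change of -0.07 (SE 0.15, 95% interval -0.40 to 0.27). Cxcl14, an epithelial chemokine, was at -0.43 (SE 0.21, limma adjusted p = 0.472). Among the receptors left, Cxcr6, Cxcr5 and Ccr7 were at -0.05 (SE 0.22), -0.05 (SE 0.13) and -0.26 (SE 0.16), and Xcr1, the receptor of cross-presenting dendritic cells, was at 0.20 (SE 0.10).

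**Figure D4:**
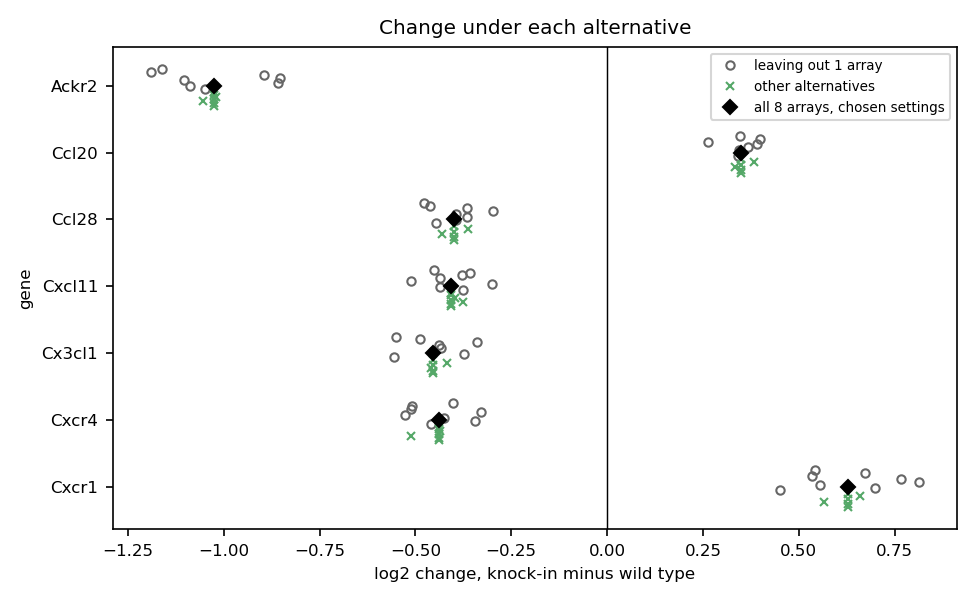
Log2 change, knock-in minus wild type (x axis), of the 7 genes with unadjusted p under 0.05 (y axis), with all arrays and chosen settings (diamonds), with 1 array left out (circles) and under the other alternatives (crosses). Each gene keeps its side of 0, and Ackr2 runs from -1.19 to -0.85.

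Known receptor and ligand pairs were often incomplete at this limit. Of 34 pairs with both genes measured, 13 had both above the limit, and in 14 the ligand was above it while the receptor was dim. Among the 13 complete pairs, ligand and receptor changes had the same sign in 7, such as Cxcl12 and Cxcr4, or Cxcl10 and Cxcr3.

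Genes that work with the chemokine system were taken from a list of 64 partners, of which 52 were tested. In limma 0 passed over all genes, where the background is 0.0669%, and 3 had an unadjusted p under 0.05, 1 higher and 2 lower. That is 5.77% of the tested partners against 11.3% of all tested genes. Il1b, a cytokine that induces chemokines, was at 7.27, 7.75, 7.79 and 6.96 in wild type and 5.20, 5.88, 5.68 and 6.22 in knock-in samples, a change of -1.70 (SE 0.25, limma adjusted p = 0.0552). Its groups were apart by 0.742. It was the only partner without overlap, 1 of 52 or 1.92%, against 7.16% of all tested genes. Rgs1, which ends G protein signals of chemokine receptors, was at -0.59 (SE 0.23, limma adjusted p = 0.374), and Icam2, an endothelial adhesion ligand, was at 0.37 (SE 0.16, limma adjusted p = 0.414). Other inducers lay nearer 0: Tnf was at -0.12 (SE 0.23) and Irf1 at -0.23 (SE 0.18), while Irf7 was at -0.47 (SE 0.21). Il6 was dim on all 8 arrays and Ifng on 7 of them. Pf4 and Ppbp, platelet chemokines outside the naming rule, were at 0.04 (SE 0.09) and 0.18 (SE 0.20). Other chemoattractants and their receptors had 0 of 9 tested genes at unadjusted p under 0.05, among them C5ar1, a complement receptor of myeloid cells, at 0.11 (SE 0.11). Rgs16, another regulator of G protein signals, had a wide error, at 1.43 (SE 0.64), and the adhesion receptors Vcam1 and Selp were at 0.30 (SE 0.17) and 0.33 (SE 0.18). Signalling genes had 1 of 21 tested members at unadjusted p under 0.05, and adhesion genes 1 of 10.

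Markers of the cells that make or receive chemokines were compared in the same way. All 9 Kupffer cell markers were above the limit, 0 had an unadjusted p under 0.05, and their mean spanned 8.23 to 9.04 on wild type arrays, beside 8.20 to 8.84 on knock-in arrays. Wild type replicate 4 had the highest Kupffer mean, and it was also the highest array for 11 of the 37 family genes. Its part in their changes was not tested. Without that array the median change of the family was -0.000677 in place of -0.05, Ccl3 (0.76) and Ccl5 (0.55) entered the members at unadjusted p under 0.05, and Cxcr4 (-0.33) left them. T and NK cell markers above the limit, 9 of 11, had a mean between 4.43 and 4.74 on wild type arrays, beside 4.45 to 4.67 on knock-in arrays, and Klrb1c was below it on all arrays. Monocyte and dendritic cell markers (6 of 8 above the limit) were at 5.36 to 5.91 and 5.37 to 5.84, with 3 changes above 0 and 3 below. Among them Flt3 was at 0.43 (SE 0.16, limma adjusted p = 0.358). It exceeded the limit on 1 wild type and 3 knock-in arrays, so the size of its change is uncertain. Siglech, a dim marker of the same list, was not tested. Its values were 3.29 to 3.89 on wild type arrays and 2.70 to 3.26 on knock-in arrays. B and plasma cell markers, all 5 above the limit, were at 4.64 to 5.07 and 4.79 to 5.14. Jchain, the joining chain of secreted antibodies, was at 1.04 (SE 0.25, limma adjusted p = 0.184). Yet 3 of the 5 changes were below 0, with a median of -0.068 and the lowest at -0.38 for Cd79b. Sinusoidal endothelial markers (9 of 9) were at 9.003 to 9.16 and 9.08 to 9.20, stellate cell markers (8 of 8) at 7.56 to 8.12 and 7.67 to 8.25, cholangiocyte markers (5 of 5) at 4.51 to 4.78 and 4.48 to 5.23, and platelet markers (2 of 3) at 3.90 to 4.58 and 4.24 to 4.57. Hepatocyte markers were all 8 above the limit, spanning 12.50 to 12.55 on wild type arrays, beside 12.43 to 12.53 on knock-in arrays.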

How the data were processed

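RNA of 8 liver samples, 4 per genotype, was measured on Affymetrix whole-transcript arrays, and group and replicate number came from the sample titles. The authors deposited 1 log2 value for every probe set on each array; the submitters' processing notes name RMA and limma, without versions, while the build behind the annotation is not given in the sources used. RMA makes array distributions nearly equal and compresses dim values, and a deposited detection call or scan batch was not used here.

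Of 41345 probe sets, 23521 had 1 gene symbol in the platform annotation, 1814 had several and 16010 had none listed. Probe sets with several symbols were left out, which leaves out Ccl19 and the Ccl21 copies. All 56 members matched RefSeq (GRCm38.p6) by Entrez identifier. Genes entered the test where 4 or more of the 8 arrays exceeded the 40th percentile, which left 13449 genes. Genotypes were compared with limma 3.58.1 under R 4.3.3 (lmFit, eBayes, two-sided, Benjamini-Hochberg over all tested genes, threshold 0.05). The code was run on simulated data with changes larger than any in the family, which does not measure power for the changes reported here. Alternatives were the dim limit, no filter, a further quantile normalization, a trended prior, array weights, the mean of probe sets, the replicate block and leaving out each array. Depth does not apply to arrays, and their number limits the precision.

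Named in full were members with unadjusted p under 0.05, the 8 with the highest mean, and 12 listed ligands and receptors; others are given by change and SE. Of each partner or marker list up to 4 genes with the smallest p were eligible; other list genes were named for their role after their values were seen. Members, lists, naming rule and tests were chosen with earlier results of these data known.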

Additional observations from a re-analysis of the deposited data

Results flagged for a closer look

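Of 74 groups of 4 samples examined over the 37 tested members, 2 held a sample far from the other 3, against 3.7 groups by chance. Ccl4 was at 4.16 in knock-in replicate 4, above the other knock-in samples at 3.53 to 3.59. Ackr3 was at 3.90 in knock-in replicate 1, below the other knock-in samples at 4.27 to 4.34. Neither gene passed in limma, and without the stray array the change of Ccl4 was -0.20 and that of Ackr3 was 0.25.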

How the results depend on the processing

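The family had 0 genes past adjusted p under 0.05 in all 15 alternatives, and 5 to 8 at unadjusted p under 0.05 except for 3 with the limit at the 60th percentile, where 13 members were left to test. The number above the limit was 21 at the 50th percentile and 13 at the 60th. The median change stayed below 0, from -0.0989 to -0.000677, and came closest to 0 without wild type replicate 4. Over all genes, 9 adjusted calls became 32 with the 60th percentile limit, 2 without a filter, 75 with a trended prior, 25 with array weights, 24 with the mean of probe sets and 1 to 12 as single arrays were left out; the cause was not tested. Partner genes at unadjusted p under 0.05 numbered 2 to 5 as single arrays were left out, 5 without knock-in replicate 1.

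With the replicate number as a block, 7 members had an unadjusted p under 0.05, 0 passed over all genes, 5 partner genes had an unadjusted p under 0.05 and 2 genes in all passed. Samples of the same number deviated with correlations of -0.11 to 0.10. For replicate 1 the value, 0.10, was above its highest correlation with a different number, 0.027. For every other replicate it was below. With so few arrays, these correlations cannot decide whether the numbers pair the samples.

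Ackr2, Ccl20, Ccl28 and Cxcl11 kept an unadjusted p under 0.05 in each alternative in which they were tested. Of 37 genes, 16 changed sign somewhere, all with changes within 0.22 of 0. Ccl27a was -0.15 with the mean of probe sets and Ccl11 was 0.020 with array weights. As single arrays were left out, Ackr3 ran from -0.035 to 0.29, Ccl11 ran from -0.12 to 0.045, Ccl17 ran from -0.12 to 0.28, Ccl2 ran from -0.10 to 0.37, Ccl27a ran from -0.14 to 0.29 and Ccl4 ran from -0.20 to 0.014. Likewise, Ccl6 ran from -0.038 to 0.23, Ccl9 ran from -0.0072 to 0.13, Ccr2 ran from -0.047 to 0.10, Cx3cr1 ran from -0.030 to 0.37 and Cxcl1 ran from -0.072 to 0.46, while Cxcl16 ran from -0.16 to 0.042, Cxcl2 ran from -0.28 to 0.045, Cxcl9 ran from -0.21 to 0.38, Cxcr5 ran from -0.16 to 0.030 and Cxcr6 ran from -0.20 to 0.092.
Array number limits precision: most intervals of single genes span 0, and changes of genes near the dim limit are uncertain in size.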

Other observations

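Some homeostatic chemokines exist as near-identical gene copies whose probe sets carry several symbols, and these stood outside the naming rule. The 13 probe sets of the Ccl19 copies, ligands of Ccr7, had means of 3.33 to 5.79 over the 8 arrays, and their differences, knock-in minus wild type, were -0.38 to 0.10. The 9 probe sets of the Ccl21a copies, which also bind Ccr7, had means of 7.14 to 7.52 and differences of 0.32 to 0.46, all above 0. The copies cannot be told apart on this array, probe sets of 1 family are not independent, and the differences were not tested.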
